A study of Homo sapiens with 12 samples.

Results

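The 6 libraries described here come from a pair of human prostate cancer cell lines that both carry the splice variant ARv7. Of the 12 libraries in the series, the 3 of C4-2 cells infected with an ARv7 lentivirus and the 3 of 22Rv-1 cells infected with a control shRNA lentivirus were chosen by their labels. C4-2 is a castration-resistant derivative of LNCaP, and here its ARv7 is supplied by the virus. 22Rv-1 was derived from the CWR22R xenograft and makes ARv7 from its own gene. All 4 groups of the series were infected with lentivirus, grown in RPMI medium with fetal bovine serum and plated in triplicate 10-cm dishes before lysis and total RNA extraction. The sources do not state how many selected lines or clones stand behind each group, so the p-values measure the spread between 3 dishes a group, which may be technical. The other 6 libraries, C4-2 with vector control and 22Rv-1 with an shRNA against ARv7, form a second pair of the same lines with less ARv7 and share no library with the first.

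Androgens drive the secretory program of luminal prostate cells, including the kallikreins. ARv7 keeps the DNA-binding domain and lacks the ligand-binding domain, so it is active without androgen, and its presence in tumours is known for going with resistance to drugs aimed at that domain. The comparison asks what still separates the lines when both carry the variant.

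Counts were expressed as CPM, the usual read count normalised to library depth, scaled by the trimmed mean of M-values (TMM), and values are mean ± SD over n = 3 libraries a group. Totals of the 6 libraries ranged from 12318529 to 14634365 counts, at which 3 counts correspond to 0.205 to 0.244 CPM. The first principal component of all 12 libraries held 84% of the variance and separated the lines. Counts on mitochondrial genes made up 3.30% to 3.52% of the C4-2 libraries and 3.94% to 3.98% of the 22Rv-1 libraries. All 12 luminal prostate markers on the list were tested, and 9 were higher and 3 lower in C4-2. Of the markers of other cells, 1 of 13 immune, 4 of 11 endothelial, 6 of 12 fibroblast and 6 of 9 basal genes had enough counts to be tested. CD3D, CD3E, CD2, DES, FAP, THY1 and ERG had no count in these 6 libraries. The summed level of the fibroblast markers was 17 to 19.3 CPM in C4-2 and 48.9 to 51.9 CPM in 22Rv-1, with 5 tested genes lower and 1 higher in C4-2. Basal markers summed to 21.9 to 25.2 and 66.6 to 73.7 CPM. Endothelial markers went the other way, at 55.8 to 59.7 CPM in C4-2 and 7.31 to 10.1 CPM in 22Rv-1. Immune markers summed to 1.16 to 2.15 and 2.02 to 3.20 CPM, and luminal markers to 9378 to 9568 and 3624 to 3662 CPM. In bulk RNA, fewer cells of a kind and less RNA per cell cannot be told apart.

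With ARv7 present on both sides, most measured genes still differed between the lines. Of 13649 genes tested with edgeR's quasi-likelihood test, 11330 (83%) passed a Benjamini-Hochberg adjusted p of 0.05. Both directions were balanced, with 5652 genes (41.4%) higher in C4-2 and 5678 (41.6%) higher in 22Rv-1. At least 2-fold differences were called for 5206 genes (38.1%), and 917 fitted differences were 5 or more on the log2 scale. At the other end, 3226 genes (23.6%) had a 95% interval that lay within 0.5 log2 units of equality. The median log2 difference (C4-2 minus 22Rv-1) over all tested genes was -0.00, and its median size was 0.73. Because so many genes were called, a list is read below against these shares, and the lists are described by counts and medians rather than tested.

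The counts are per gene and do not read the variant itself, so they do not check the labels for ARv7. Of 30 nuclear receptor coregulators and co-chaperones, 10 were higher and 16 lower in C4-2, with a median log2 difference of -0.17, and 15 lay within 0.5 log2 units of equality. The coactivator NCOA1 averaged 90.3 ± 5.38 CPM in C4-2 and 32.9 ± 2.26 in 22Rv-1. HSPA8, a constitutive HSP70 chaperone, averaged 2099 ± 16.2 and 824 ± 7.33 CPM. The corepressor NCOR1 went the other way, at 253 ± 6.97 CPM in C4-2 and 464 ± 12.8 in 22Rv-1. Each of these 3 genes passed the edgeR test, with log2 differences of 1.45, 1.35 and -0.87.

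Classical androgen-response genes were mostly higher in C4-2. Of 37 tested, 31 were higher in C4-2 and 6 were lower, and 26 of the 31 were at least 2-fold higher. Their median log2 difference was 2.17, beside -0.00 over all genes. The summed level of the list was 16315 to 16441 CPM in the C4-2 libraries and 7159 to 7355 CPM in the 22Rv-1 libraries.

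KLK3, which encodes prostate-specific antigen, read 2607, 2554 and 2556 CPM in C4-2 and 16.1, 15.8 and 13.9 CPM in 22Rv-1. Every C4-2 library was far above every 22Rv-1 library, a log2 difference of 7.40 (SE 0.055, edgeR adjusted p = 1.03e-82). TMPRSS2, a membrane serine protease whose promoter is a frequent fusion partner of ETS genes, read 1467, 1427 and 1441 CPM against 51.3, 47.3 and 49.4 CPM, a log2 difference of 4.87 (SE 0.049). KLK2, the neighbouring kallikrein on chromosome 19, averaged 498 ± 16.4 and 51.1 ± 4.72 CPM (log2 difference 3.29). SLC45A3, which encodes prostein, averaged 695 ± 31.9 and 56.1 ± 7.21 CPM (3.63). ABCC4, a drug and prostaglandin exporter, averaged 473 ± 0.696 and 21.6 ± 1.16 CPM (4.45). ACSL3, a long-chain acyl-CoA synthetase, averaged 1240 ± 32.3 and 122 ± 10.8 CPM (3.35). In none of these genes did the groups overlap.

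The KLK3 promoter is shown because KLK3 had the smallest adjusted p on the list and its promoter is a textbook example of androgen response elements. The sequence is RefSeq's, GRCh38.p14, chr19:50854665-50854964 on the plus strand, 250 bases before to 50 after the annotated start. Capitals mark the AGAACA hexamer of the androgen response half-site, which lies 170 bases before the start.
KLK3: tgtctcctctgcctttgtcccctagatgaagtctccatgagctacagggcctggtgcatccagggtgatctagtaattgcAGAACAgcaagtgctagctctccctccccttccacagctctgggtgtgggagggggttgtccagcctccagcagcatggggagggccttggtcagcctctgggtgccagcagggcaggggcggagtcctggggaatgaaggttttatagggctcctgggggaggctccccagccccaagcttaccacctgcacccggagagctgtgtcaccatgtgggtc
On either strand, AGAACA was found in 3 of the 27 promoters of androgen-response genes with a RefSeq entry (11.1%) and in 14.9% of all 27305 promoters. The match is a description of letters and not evidence of binding.

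Androgen-response genes did not move as a block, and 6 members were lower in C4-2. HPGD, which inactivates prostaglandins, averaged 3.88 ± 0.806 CPM in C4-2 and 106 ± 6.12 in 22Rv-1, a log2 difference of -4.76. ZBTB10, a zinc-finger repressor on chromosome 8, averaged 100 ± 4.65 and 871 ± 53.6 CPM (-3.12). PMEPA1, an inhibitor of TGF-beta signalling, averaged 467 ± 5.49 and 1065 ± 19.4 CPM (-1.19). The kallikrein KLK4 also passed the test on the lower side, at 363 ± 9.12 and 499 ± 19.1 CPM (-0.46). FKBP5, named here after its values were seen because it is a standard readout of androgen response, averaged 623 ± 3.83 in C4-2 and 952 ± 40.1 CPM in 22Rv-1 (-0.61). Neighbouring kallikreins thus differed in direction, KLK3 and KLK2 on the higher and KLK4 on the lower side.

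Of 14 genes that have been reported as ARv7-responsive, 2 were higher and 11 lower in C4-2, with a median log2 difference of -0.73. Several are cell cycle genes described further on. UBE2C, an E2 enzyme of the anaphase-promoting complex, averaged 16.2 ± 1.03 CPM in C4-2 and 49.6 ± 1.71 in 22Rv-1. SNAI2, a repressor of epithelial genes, averaged 9.87 ± 0.618 and 114 ± 7.84 CPM. The zinc transporter SLC30A7 was one of the exceptions, with a log2 difference of 0.96.

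**Figure D1:**
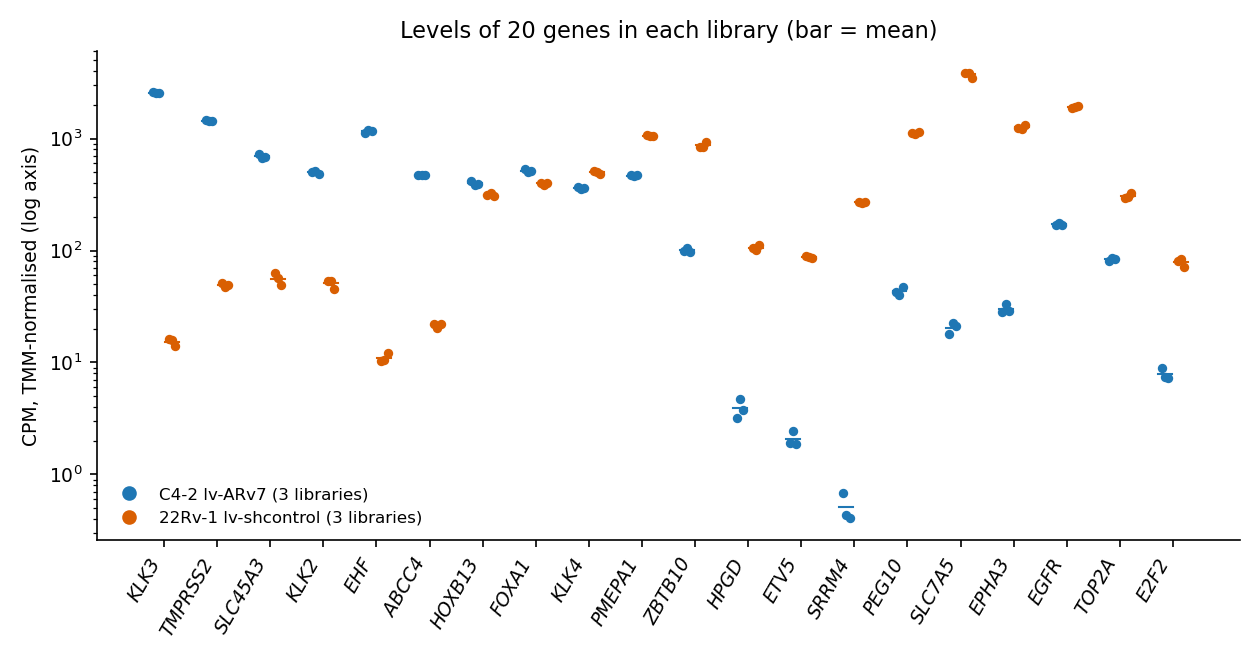
CPM in each library on a log axis for 20 genes, with C4-2 lv-ARv7 in blue, 22Rv-1 lv-shcontrol in orange and a bar at each mean of 3 libraries. KLK3 sits at 2554 to 2607 CPM in C4-2 and 13.9 to 16.1 in 22Rv-1, HOXB13 is nearly equal, and SRRM4 and SLC7A5 lie far higher in 22Rv-1.

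Lineage transcription factors differed in both directions. Of 22 tested, 10 were higher and 12 lower in C4-2, 5 and 8 of them at least 2-fold, and 7 lay within 0.5 log2 units of equality. Their median size of difference was 1.36 on the log2 scale, beside 0.73 over all genes. HOXB13, a prostate-restricted homeobox factor, averaged 400 ± 16.6 CPM in C4-2 and 316 ± 12.6 in 22Rv-1 (log2 difference 0.34). GRHL2, an epithelial identity factor, averaged 206 ± 7.09 and 184 ± 4.81 CPM (0.17). The pioneer factor FOXA1, chosen after its values were seen, averaged 518 ± 13.4 and 399 ± 9.87 CPM (0.38).

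EHF, an epithelial ETS factor, read 1130, 1205 and 1165 CPM in C4-2 and 10.2, 10.4 and 12.2 CPM in 22Rv-1. Its log2 difference of 6.73 (SE 0.061) passed with an edgeR adjusted p of 4.64e-77, and the groups were far apart. The PEA3-family ETS factors went the other way. ETV5 averaged 2.08 ± 0.319 CPM in C4-2 and 87.5 ± 1.11 in 22Rv-1 (-5.38). ETV1 had 12 counts in the 3 C4-2 libraries together and 1984 in those of 22Rv-1, or 0.296 ± 0.258 and 46.8 ± 6.4 CPM. CREB3L4, an androgen-regulated bZIP factor, and XBP1, a factor of the unfolded protein response, were higher in C4-2, with log2 differences of 1.54 and 2.01.

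Neuroendocrine genes had the lowest median of the 46 lists. Of 27 members 16 were tested, and 14 were lower in C4-2, each at least 2-fold, and 2 were higher. Some members, SRRM4 and CHGA among them, had enough counts for the test only through 22Rv-1. The median log2 difference was -5.09, or -4.88 with genes at 0 counts set at the bound that 3 counts allow. Over the alternative fits it ran from -5.20 to -3.50, with 9 to 15 genes lower. The summed level of the list was 103 to 107 CPM in C4-2 and 2448 to 2529 CPM in 22Rv-1. SRRM4, a splicing factor of neural microexons, read 0.686, 0.432 and 0.407 CPM in C4-2 and 273, 268 and 273 CPM in 22Rv-1, a log2 difference of -9.02 (SE 0.11, edgeR adjusted p = 6.85e-68). PEG10, a retrotransposon-derived gene, averaged 43.2 ± 3.39 and 1123 ± 19 CPM. ENO2, the neuronal enolase, averaged 27.8 ± 2.89 and 556 ± 30.2 CPM, and SYT4, a synaptotagmin of secretory vesicles, averaged 11.3 ± 3.16 and 390 ± 31.7 CPM. The clinical markers CHGA and SYP, named after their values were seen, were also higher in 22Rv-1. CHGA had 1 count against 203, a ratio of 197 (exact 95% counting interval 35 to 7822), and SYP averaged 2.71 ± 0.471 and 34.3 ± 4.27 CPM. The exceptions were DDC, the aromatic amino acid decarboxylase, at 16 ± 1.15 CPM in C4-2 and 2.96 ± 0.231 in 22Rv-1, and UCHL1, with 39 counts against 5 (ratio 8.03, interval 3.16 to 26.1). ELAVL4, GRP, NTS, PCSK2 and STMN2 had no count in any of the 6 libraries.

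Cell cycle genes were almost uniformly lower in C4-2. Of 39 replication and G1/S genes, 38 were lower and 1 was higher, 28 of them at least 2-fold lower, with a median log2 difference of -1.48. Of 36 mitosis and G2/M genes, 35 were lower and 1 was higher, 22 of them at least 2-fold lower, with a median of -1.05. E2F2, an activating E2F factor of the G1/S switch, read 8.85, 7.49 and 7.32 CPM in C4-2 and 81.2, 83.7 and 71.1 in 22Rv-1, a log2 difference of -3.31 (SE 0.098, edgeR adjusted p = 8.73e-44). TOP2A, which untangles chromosomes before mitosis, read 80.8, 86.1 and 83.6 against 297, 299 and 327 CPM (-1.88, SE 0.052). MKI67, which encodes the proliferation antigen Ki-67, read 79.4, 79 and 79.9 against 217, 228 and 236 CPM (-1.51, SE 0.053). No library of one line reached the range of the other in these 3 genes.

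Other members showed the same direction at different sizes. MCM4, a subunit of the replicative helicase, averaged 101 ± 6.21 CPM in C4-2 and 660 ± 13.6 in 22Rv-1 (-2.71). POLE, the catalytic subunit of the leading-strand polymerase on chromosome 12, averaged 64 ± 0.981 and 316 ± 14.6 CPM (-2.30). CDT1, a licensing factor, averaged 30 ± 1.52 and 136 ± 6.78 CPM (-2.18). NEK2, a centrosomal kinase, averaged 16.1 ± 1.47 and 90.7 ± 1.99 CPM (-2.50). The mitosis gene on the higher side was CCNB1, the mitotic cyclin B1 on chromosome 5, which averaged 68.7 ± 4.54 and 55.7 ± 3.36 CPM (0.30).

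Promoters of 3 of these genes are shown, since the lists moved together and their members are known for shared promoter letters. All are RefSeq's on GRCh38.p14, 250 bases before to 50 after the start, on the minus strand: TOP2A at chr17:40417847-40418146, MKI67 at chr10:128126374-128126673 and E2F2 at chr1:23531184-23531483. Capitals mark TTTGAA, the letters of the cell cycle homology region, on either strand in TOP2A and MKI67, and the E2F-like letters TTTNNCGC in E2F2.
TOP2A: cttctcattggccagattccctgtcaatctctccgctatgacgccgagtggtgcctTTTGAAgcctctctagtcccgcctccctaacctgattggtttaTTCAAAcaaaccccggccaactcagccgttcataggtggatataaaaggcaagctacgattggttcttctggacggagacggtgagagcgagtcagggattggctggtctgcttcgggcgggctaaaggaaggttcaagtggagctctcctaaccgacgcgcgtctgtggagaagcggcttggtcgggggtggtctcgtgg
MKI67: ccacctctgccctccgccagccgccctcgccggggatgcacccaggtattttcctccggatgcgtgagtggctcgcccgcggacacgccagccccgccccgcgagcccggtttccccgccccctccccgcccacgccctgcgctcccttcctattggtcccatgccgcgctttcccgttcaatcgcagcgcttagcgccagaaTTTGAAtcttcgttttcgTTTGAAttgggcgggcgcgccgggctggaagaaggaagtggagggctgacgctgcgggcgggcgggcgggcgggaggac
E2F2: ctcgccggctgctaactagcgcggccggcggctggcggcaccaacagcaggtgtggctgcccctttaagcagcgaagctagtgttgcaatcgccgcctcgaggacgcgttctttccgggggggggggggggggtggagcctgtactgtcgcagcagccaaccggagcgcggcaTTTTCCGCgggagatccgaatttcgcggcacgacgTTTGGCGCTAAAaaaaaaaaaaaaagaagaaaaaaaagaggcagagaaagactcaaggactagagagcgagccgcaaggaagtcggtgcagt
The TOP2A matches start 194 and 151 bases before the start and those of MKI67 47 and 29 bases before it. The E2F2 matches lie 77, 42 and 38 bases before it, and the last 2 overlap. TTTGAA was found in 21 of 30 mitosis promoters with a RefSeq entry (70%) and in 15.4% of all 27305 promoters. TTTNNCGC was found in 21 of 32 replication promoters (65.6%) and in 6.9% of all. The letters were searched on both strands, and a match is neither a site nor a cause.

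DNA repair lists leaned the same way with more exceptions. Lower in C4-2 were 22 of 35 homologous recombination genes, 10 of 17 Fanconi genes, 9 of 14 mismatch repair genes, 12 of 20 base excision genes and 15 of 24 damage checkpoint genes. Higher were 7, 4, 2, 6 and 6 of them, and the medians were -0.59, -0.92, -0.65, -0.36 and -0.42. Nucleotide excision repair was split, with 8 of 20 higher and 7 lower, and of 18 end-joining genes 6 were higher and 11 lower. The lists share members, among them EXO1 in mismatch repair and homologous recombination and PARP1 in end joining and base excision. In the mismatch repair list, LIG1, PCNA and EXO1 were lower in C4-2 and MSH6 slightly so. MSH3 and MLH3 of that list were higher, and PMS1 and PMS2 were not called. BRCA1, a mediator of homologous recombination, averaged 68.2 ± 2.44 CPM in C4-2 and 197 ± 5.32 in 22Rv-1 (-1.53). FANCA, a Fanconi core subunit, averaged 21.2 ± 1.24 and 95.4 ± 3.34 CPM (-2.17). UNG, the uracil glycosylase that starts base excision, averaged 83 ± 4.29 and 365 ± 13.2 CPM (-2.14). WEE1, the kinase that holds CDK1 inactive, averaged 27.3 ± 0.445 and 107 ± 6.45 CPM (-1.97), and PARP1, a sensor of strand breaks, averaged 450 ± 11.5 and 969 ± 12 CPM (-1.11).

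Members on the higher side in C4-2 included MSH3, a mismatch repair subunit for insertion loops. It read 35.8, 36.3 and 39.4 CPM in C4-2 and 5.43, 3.65 and 5.99 in 22Rv-1, a log2 difference of 2.87 (SE 0.13, edgeR adjusted p = 1.75e-32) with no overlap between the groups. Its annotated span overlaps another gene, and reads there cannot be assigned without strand. GTF2H2, a TFIIH subunit that has near-identical copies, averaged 163 ± 4.77 and 30.1 ± 0.413 CPM and is uncertain for that reason. The damage kinase ATM averaged 90.4 ± 4.42 and 50.4 ± 4.83 CPM (0.84), the nuclease FAN1 199 ± 1.59 and 105 ± 4.02 CPM (0.92), and the BRCA1 partner BARD1 differed by 0.87. PALB2, MUS81 and SFR1 were level, at log2 differences that round to 0.00. Of 29 p53 targets, 16 were higher and 10 lower. PLK2, a stress-responsive kinase, averaged 38.6 ± 1.63 and 0.841 ± 0.342 CPM (5.49), and BBC3, which encodes the BH3 protein PUMA, averaged 4.89 ± 2.14 and 50.3 ± 5.53 CPM (-3.36).

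**Figure D2:**
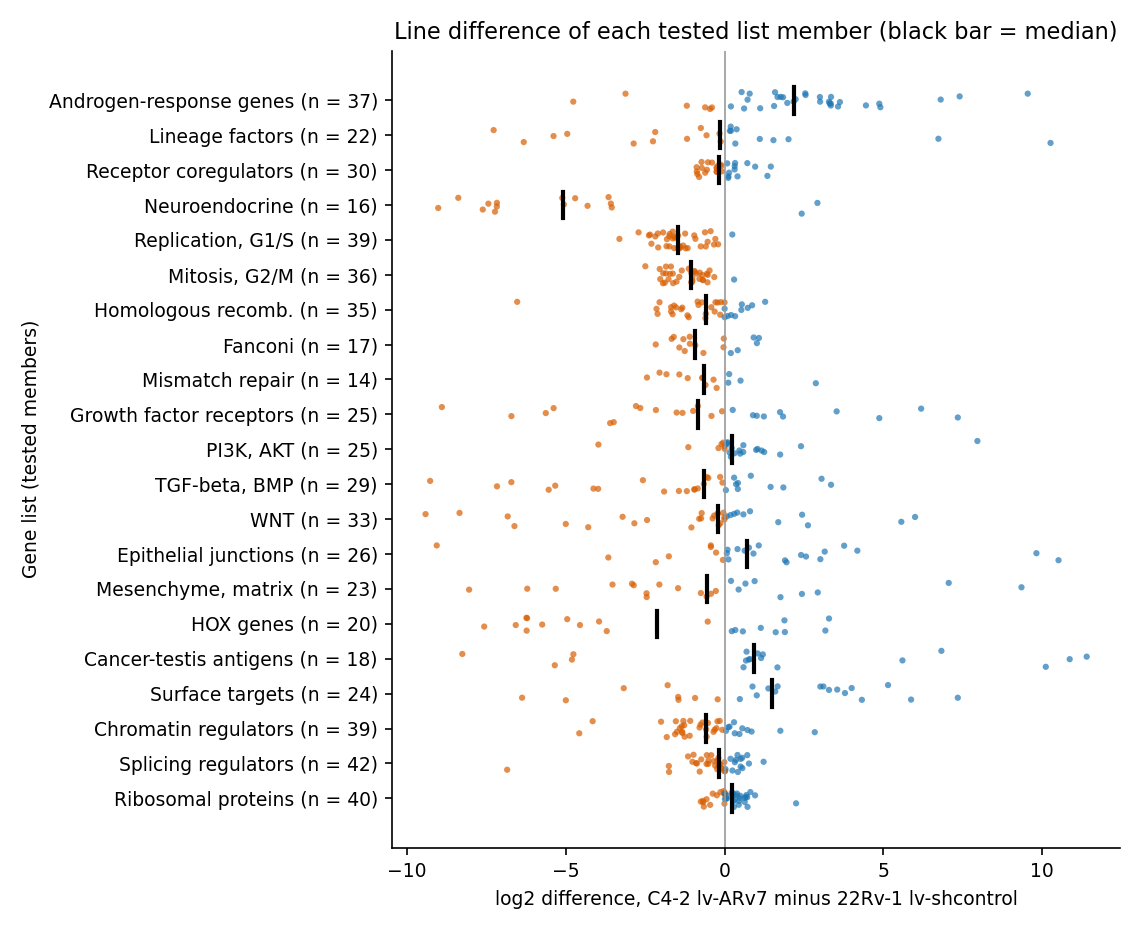
Log2 difference (C4-2 lv-ARv7 minus 22Rv-1 lv-shcontrol) of each tested member of 21 lists, 1 point a gene, with a black bar at the list's median. Androgen-response genes lie mostly right of 0 (median 2.17), replication and mitosis genes almost wholly left of it (medians -1.48 and -1.05), and neuroendocrine genes farthest left (-5.09).

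Growth factor receptors differed strongly in both directions. Of 25 receptors tested, 10 were higher and 14 lower in C4-2, with a median log2 difference of -0.84. EGFR read 170, 175 and 169 CPM in C4-2 and 1893, 1920 and 1962 in 22Rv-1, a log2 difference of -3.49 (SE 0.042, edgeR adjusted p = 2.53e-69). EPHA3, an ephrin receptor, averaged 30.1 ± 2.72 and 1258 ± 52.4 CPM (-5.38). FGFR3 averaged 1.82 ± 0.0458 and 90.3 ± 7.03 CPM (-5.63), and DDR1, a collagen receptor, 135 ± 7.37 and 853 ± 55.7 CPM (-2.65). Higher in C4-2 were IGF1R, at 639 ± 24.4 and 179 ± 3.38 CPM (1.84), and LIFR, a cytokine receptor on chromosome 5, at 137 ± 7.06 and 11.8 ± 2.17 CPM (3.53). ROR1, an orphan receptor kinase, had 1156 counts in C4-2 and 7 in 22Rv-1, a ratio of 170 (exact 95% counting interval 82.3 to 424).

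Downstream of the receptors, 15 of 25 tested members of the PI3K and AKT list were higher in C4-2 and 2 were lower, and 12 lay within 0.5 log2 units of equality. PIK3CD, a catalytic PI3K subunit, read 152, 147 and 150 CPM in C4-2 and 0.765, 0.228 and 0.749 CPM in 22Rv-1, a log2 difference of 7.96 (SE 0.13, edgeR adjusted p = 2.04e-60). Another catalytic subunit, PIK3CA, was lower in C4-2, at 19.8 ± 0.927 and 43.6 ± 3.6 CPM (-1.14), and the regulatory subunit PIK3R1 was higher, at 254 ± 6.67 and 47.9 ± 3.08 CPM (2.41). IRS2, an adaptor of insulin signalling, averaged 39.4 ± 2.11 and 619 ± 5.65 CPM (-3.97). AKT2 averaged 252 ± 6.8 and 252 ± 11.8 CPM, with a 95% interval of the log2 difference from -0.09 to 0.09. Of 14 tested IGF axis genes, 4 were higher and 9 lower, among them IGF2BP2, an mRNA-binding protein, at 0.405 ± 0.211 CPM in C4-2 and 62.1 ± 2.93 in 22Rv-1.

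The ID genes, classical BMP targets, were lower in C4-2, while some receptor genes were higher and others level. Of 29 tested TGF-beta and BMP genes, 9 were higher and 18 lower in C4-2, with a median of -0.65. The ID genes encode dominant inhibitors of bHLH factors. ID1 averaged 5.54 ± 0.811 CPM in C4-2 and 97.4 ± 6.69 in 22Rv-1 (-4.13), ID3 averaged 3.38 ± 0.378 and 137 ± 7.17 CPM (-5.33), and ID4 averaged 0.55 ± 0.301 and 60.1 ± 5.53 CPM (-6.71). Some receptors went the other way: BMPR1B averaged 309 ± 10.1 and 30.2 ± 0.573 CPM (3.35) and TGFBR3 30.5 ± 4.08 and 3.69 ± 0.969 CPM (3.05). BMPR2 was also higher, with log2 differences of 1.29 to 1.50 over the alternative fits. The receptor genes BMPR1A and ACVR1B were level, at 0.01 to 0.08 and -0.09 to -0.04 over these fits. Of 33 WNT pathway genes, 8 were higher and 15 lower. The ligand gene WNT7B averaged 38.8 ± 1.75 CPM in C4-2 and 6.32 ± 1.23 in 22Rv-1 (2.62), the nuclear effector LEF1 2.21 ± 0.839 and 20.1 ± 0.554 CPM (-3.21), and APC was level with a log2 difference of 0.07.

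Most junction genes were higher in C4-2 and most matrix genes were lower, with single genes that differed by orders of magnitude on both sides. Of 26 epithelial junction genes, 16 were higher and 7 lower in C4-2, with a median of 0.70. TJP1, a tight junction scaffold, averaged 452 ± 9.54 and 76.5 ± 1.6 CPM (2.56), CLDN4, a claudin, 239 ± 5.07 and 26.9 ± 0.864 CPM (3.15), and DSC2, a desmosomal cadherin, 152 ± 5.99 and 8.43 ± 1.2 CPM (4.18). Against that direction, CDH3, the placental cadherin, had 6 counts in C4-2 and 3523 in 22Rv-1, a ratio of 570 (exact 95% counting interval 262 to 1554). Of 23 mesenchymal and matrix genes, 8 were higher and 13 lower, with a median of -0.57. Their summed level went the other way, at 1154 to 1187 CPM in C4-2 and 577 to 591 CPM in 22Rv-1. COL12A1, a fibril-associated collagen, read 274, 265 and 265 CPM in C4-2 and 0.417, 0.304 and 0.477 in 22Rv-1, a log2 difference of 9.35 (SE 0.12). LAMA3, a laminin chain, averaged 269 ± 9.15 and 2.01 ± 0.289 CPM (7.06). LUM, a proteoglycan counted among the fibroblast markers, had 3 counts in C4-2 and 953 in 22Rv-1 (ratio 308, interval 105 to 1498), and its part in the matrix list was not tested. Among luminal keratins, KRT8 differed by -0.16 and KRT18 by 0.81, a pair that overlaps on chromosome 12, while KRT19 averaged 9.1 ± 1.42 CPM in C4-2 and 73.7 ± 4.93 in 22Rv-1 (-3.01).

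Genes for cell-surface proteins that are therapeutic targets were mostly higher in C4-2, 16 of 24 against 8 lower, with a median of 1.49. EPCAM averaged 200 ± 3.18 and 24.7 ± 1.34 CPM (3.02) and SLC44A4, a choline transporter-like protein, 295 ± 9.08 and 25.3 ± 1.85 CPM (3.55). FOLH1, which encodes the imaging target PSMA and was chosen after its values were seen, averaged 1255 ± 17.6 and 683 ± 29.1 CPM (0.88). On the 22Rv-1 side, ALCAM, an adhesion molecule, averaged 32.7 ± 1.54 in C4-2 and 295 ± 17.7 CPM in 22Rv-1 (-3.18), and CD44 had 4 counts against 373 (ratio 90.5, interval 35.1 to 334).

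Of 37 cancer-testis antigen genes 18 were tested. Of these, 14 were higher in C4-2, 9 of them at least 2-fold, and 4 were lower, each at least 2-fold. PAGE1 and MAGEA10 had enough counts for the test only through C4-2, and CTAG2 only through 22Rv-1. The summed level of the list was 763 to 767 CPM in C4-2 and 666 to 713 CPM in 22Rv-1. PAGE1 had 6214 counts in C4-2 and 2 in 22Rv-1, a ratio of 3201 (exact 95% counting interval 886 to 26434). MAGEA10 averaged 16.9 ± 2.11 CPM in C4-2 with no count in 22Rv-1, at least 236-fold higher against a floor of 3 counts over the group. CTAG2, which encodes LAGE-1, averaged 0.408 ± 0.303 in C4-2 and 123 ± 12.2 CPM in 22Rv-1 (-8.26), MAGEA4 averaged 6.5 ± 0.423 and 183 ± 8.42 CPM (-4.81), and MAGEA1 3.95 ± 0.515 and 107 ± 5.71 CPM (-4.76). Members of these families share sequence, so the split of reads among copies is uncertain. Of 20 tested HOX genes, 8 were higher and 11 lower in C4-2, a majority that turned where genes under a mean of 5 CPM were left out. HOXA5 had 5 counts against 530 (ratio 103, interval 43.8 to 318) and HOXB7 4 against 336 (ratio 81.5, interval 31.6 to 301), whereas HOXA10, a more posterior gene of the HOXA cluster, averaged 12.4 ± 0.637 in C4-2 and 1.27 ± 0.651 CPM in 22Rv-1 (3.29).

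Among metabolic genes the amino acid transporter SLC7A5 (LAT1) had, with KLK3, the smallest adjusted p among all genes on the lists. It read 17.8, 22.4 and 21 CPM in C4-2 and 3853, 3849 and 3511 CPM in 22Rv-1, a log2 difference of -7.52 (SE 0.056, edgeR adjusted p = 1.03e-82). Its partner chain SLC3A2 averaged 405 ± 9.18 and 1150 ± 53 CPM (-1.51). Of the 24 amino acid response and stress genes to which both belong, 11 were higher and 12 lower in C4-2, and the counts were even under some alternatives. ALDH1L2, a mitochondrial folate enzyme, averaged 2.69 ± 0.571 in C4-2 and 428 ± 15.9 CPM in 22Rv-1 (-7.29), while STC2, a secreted stanniocalcin, averaged 408 ± 8.62 and 65.8 ± 1.43 CPM (2.63) and PHGDH, the first enzyme of serine synthesis, 939 ± 33.2 and 427 ± 14.7 CPM (1.14). ASNS, the asparagine synthetase, was level at 22.3 ± 0.753 and 20.8 ± 2.81 CPM (0.11, 95% interval -0.11 to 0.32).

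Polyamine genes were higher in C4-2 in 13 of 20 tested members and lower in 4. SMS, the spermine synthase on chromosome X, averaged 497 ± 9.54 CPM in C4-2 and 59.1 ± 1.19 in 22Rv-1 (3.07), and ARG2, a mitochondrial arginase, 123 ± 1.08 and 8.76 ± 1.61 CPM (3.80). Of 17 metallothionein and zinc genes 8 were higher and 6 lower, a split that turned under some alternatives. The zinc transporter SLC30A4 averaged 617 ± 3.81 and 9.41 ± 1.17 CPM (6.03). Of 30 fatty acid genes, 19 were higher and 9 lower. The desaturase FADS2 averaged 246 ± 17.5 and 35.1 ± 2.59 CPM (2.81), the elongase ELOVL2 0.386 ± 0.309 and 52.8 ± 3.25 CPM (-7.13), and FASN, the fatty acid synthase, was level at 1224 ± 49.4 and 1292 ± 93.2 CPM (-0.08, 95% interval -0.16 to 0.00). Of 32 cholesterol genes, 14 were higher and 13 lower. Of 20 steroid metabolism genes, 11 were higher and 6 lower. STS, the steroid sulfatase, averaged 24.3 ± 0.472 in C4-2 and 4.92 ± 0.387 CPM in 22Rv-1 (2.31). AKR1C3, which reduces androstenedione to testosterone and has close homologues, had 3 counts against 176 (ratio 57, interval 19.2 to 279). Of 33 glycolysis and hypoxia genes, 18 were higher and 11 lower. VEGFA averaged 284 ± 8 and 1820 ± 30.8 CPM (-2.68), BNIP3, a mitophagy receptor, 350 ± 17.3 and 50.6 ± 0.898 CPM (2.79), and GAPDH differed by -0.18.

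Splicing and ribosomal protein genes differed less in size, with median sizes of 0.46 and 0.38 on the log2 scale beside 0.73 over all genes. Of 42 splicing regulators, 18 lay within 0.5 log2 units of equality, 13 were higher and 23 lower. SRSF3 and SRSF5 averaged 290 ± 13.8 and 289 ± 18.1 CPM in C4-2 and 292 ± 17.6 and 286 ± 12.7 in 22Rv-1. ESRP1, an epithelial splicing factor on chromosome 8, averaged 127 ± 1.94 and 428 ± 14.7 CPM (-1.75), and MBNL2 had 9 counts against 1117 (ratio 120, interval 63.2 to 264). Of 39 chromatin regulators, 10 were higher and 27 lower, with a median of -0.58. ARID1A, a SWI/SNF subunit, averaged 195 ± 9.44 in C4-2 and 564 ± 22.7 CPM in 22Rv-1 (-1.53), and KDM6A, an H3K27 demethylase on chromosome X, 415 ± 4.53 and 58.1 ± 1.4 CPM (2.84). Of 40 ribosomal protein genes, 21 were higher and 9 lower, with a median of 0.24 and 21 within 0.5 log2 units of equality. RPS23 was the member with a difference over 2-fold, at 216 ± 8.4 and 45.3 ± 2.49 CPM (2.25).

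Antigen presentation genes were higher in C4-2 in 14 of 23 tested members and lower in 4, with a median of 0.71. B2M, the invariant chain of MHC class I, averaged 661 ± 9.44 CPM in C4-2 and 136 ± 7.09 in 22Rv-1 (2.28). HLA-C averaged 63.1 ± 1.03 and 30.9 ± 1.56 CPM (1.03), with reads that may be shared among HLA genes. HLA-E and the peptide transporter TAP1 were close to equal, with log2 differences of 0.09 and 0.17. Of 24 interferon response genes, 13 were higher and 9 lower.

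Some genes were read on only 1 side of this pair. With a mean of at least 5 CPM in one group and no count in the other, 41 genes were read only in C4-2 and 31 only in 22Rv-1. PTPRM, a receptor phosphatase on chromosome 18, read 182, 172 and 188 CPM in C4-2, at least 2526-fold above the floor of 3 counts over the 22Rv-1 group. NLGN4X, a neuroligin, averaged 90.8 ± 5.81 CPM (at least 1275-fold), SLC9A2, a sodium-proton exchanger, 75.2 ± 2.38 (at least 1051-fold) and NLRP2, an inflammasome family gene, 58.7 ± 2.22 (at least 823-fold). On the 22Rv-1 side, PNMA8A averaged 27.2 ± 1.16 CPM (at least 371-fold), CYP1A1, a dioxin-inducible P450, 27.1 ± 1.79 (at least 369-fold), and GSTM4, one of a family of similar glutathione transferases, 13.5 ± 3.36 (at least 183-fold). In the second pair of groups, 16 of the 41 also had no count in 22Rv-1 with the ARv7 shRNA and 19 of the 31 had none in C4-2 with vector control. CYP1A1 was among those that did have counts there, 8 in the C4-2 control libraries. In the libraries of 22Rv-1 with the ARv7 shRNA, PTPRM had 7 counts, SLC9A2 14, and NLGN4X and NLRP2 1 each.

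The line differences were unevenly spread over chromosomes. On chromosome 8, 70.5% of tested genes were lower in C4-2 (median log2 difference -0.71) and on chromosome 12 69.2% were (-0.61), beside 41.6% over all genes. On chromosome X 60.6% were higher (0.56) and on chromosome 5 56.5% (0.34), beside 41.4%. Chromosomes 21, 14, 11 and 20 were close to chromosome 5, at 55.0%, 53.9%, 53.4% and 53.2% higher. In windows of 30 neighbouring tested genes, the medians of 360 windows ran from -0.718 at the 5th percentile to 0.637 at the 95th. The lowest median, -1.50, lay on chromosome 8 between 23841929 and 30177208 (GRCh38), where 25 of 30 differences were negative. The next lowest, -1.29, lay on chromosome 19 between 45527427 and 47484265, where 29 of 30 were negative and BBC3 and PNMA8A lie. The chromosomes and the windows were picked after their values were seen. Examples of genes named above that went in the direction of their chromosome are MCM4, ESRP1 and ZBTB10 on chromosome 8 and POLE and UNG on chromosome 12. On chromosome 5 they are MSH3, PIK3R1, LIFR, STC2 and RPS23. Not all did so: KRT18, on chromosome 12, was higher in C4-2. On chromosome X, SMS and KDM6A were higher in C4-2, whereas CTAG2, MAGEA4 and MAGEA1 were far lower. DNA copy number was not measured, and its part in these differences was not tested.

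**Figure D3:**
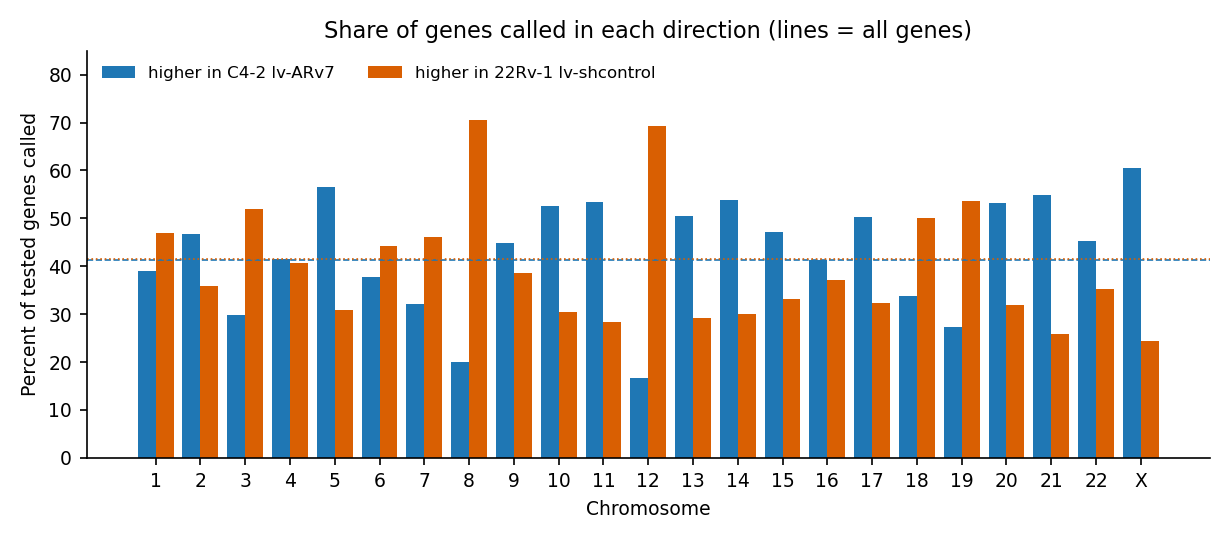
Percent of tested genes on each chromosome called higher in C4-2 lv-ARv7 (blue) or in 22Rv-1 lv-shcontrol (orange), with lines at the shares over all genes, 41.4% and 41.6%. Chromosomes 8 and 12 stand out toward 22Rv-1, at 70.5% and 69.2%, and X toward C4-2, at 60.6%. Chromosomes 5, 21, 14, 11 and 20 follow, at 53.2% to 56.5%.

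The second pair, C4-2 with vector control against 22Rv-1 with the ARv7 shRNA, showed how much of the line difference was there with less ARv7. In that pair 11420 of 13767 genes (83%) passed the edgeR test, 5463 (39.7%) higher in C4-2 and 5957 (43.3%) lower. With total counts in place of TMM the median of that pair moved from -0.05 to -0.24 and the share of its calls on the higher side from 47.8% to 39.9%. Among 13350 genes tested in both pairs, 8910 were called in the same direction and 729 in opposite directions, so that 92.4% of the genes called in both had the same direction. A further 1456 were called only with ARv7 and 1428 only with less of it. Across genes, which are not independent, the log2 differences of both pairs correlated with r = 0.893.

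The size of many differences did change. In 1 model of all 12 libraries, the line difference itself changed for 7211 of 14235 genes (50.7%, edgeR quasi-likelihood test of the difference of differences), 3897 upward (27.4%) and 3314 downward (23.3%). At least 2-fold changes were upward for 1727 genes (12.1%) and downward for 638 (4.48%). Upward means a shift toward C4-2 in the pair with ARv7. The split between the directions depended on the scaling: 54.0% of the calls were upward with TMM and 72.0% with total counts, where the median change over all genes was 0.06 and 0.25. This test joins 2 manipulations in 2 lines, so it does not say which of them moved a gene. C4-2 control replicate 3 stood apart from its group, its counts differing from those of the other replicates by chi-square values, divided by their degrees of freedom, of 6.85 and 12.3, beside 3.66 between those. Without it, 7308 genes were called.

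Androgen-response genes were mostly higher in C4-2 in both pairs, with a median log2 difference of 1.69 (24 higher and 10 lower of 35) in the pair with less ARv7. Line differences rose with ARv7 for 19 of 37 and fell for 11. The KLK3 difference was 7.40 with ARv7 and 4.83 with less of it, where C4-2 control averaged 661 ± 40 CPM and 22Rv-1 with the shRNA 23.1 ± 2.89. The KLK2 difference was 3.29 and 0.72. Both changes were 2.57 on the log2 scale (edgeR adjusted p = 3.30e-21 for KLK3 and 2.40e-22 for KLK2). For SLC45A3 the difference was 3.63 and 3.77, a change of -0.14 that did not pass (adjusted p = 0.273, edgeR), and for ZBTB10 it was -3.12 in both pairs. TMPRSS2 went the other way, with 4.87 and 5.52, a change of -0.65.

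The gap in cell cycle genes was wider in the pair with less ARv7. With less ARv7, 35 of 36 mitosis genes were lower in C4-2 with a median of -4.78, beside -1.05 with ARv7, and the line difference changed upward for 36 of 37. For replication genes the medians were -2.32 and -1.48, and 30 of 39 changed upward. TOP2A averaged 1.64 ± 0.684 CPM in C4-2 control and 252 ± 8.59 in 22Rv-1 with the shRNA, so that its difference was -7.26 and changed by 5.37 (SE 0.15, edgeR adjusted p = 1.00e-26). MKI67 averaged 5.88 ± 0.891 and 147 ± 4.68 CPM there, a difference of -4.64 and a change of 3.12. In the pair with ARv7 both genes were still lower in C4-2. On the log2 scale, the C4-2 groups lay much farther apart than the 22Rv-1 groups in TOP2A and MKI67. Among repair genes, the BRCA1 difference went from -4.56 to -1.53 and that of MSH3 from 2.65 to 2.87, while BRCA2, named after its values were seen, went from -2.28 to -0.14. The POLE difference was a contrary case, -1.90 with less ARv7 and -2.30 with it.

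Of 17 neuroendocrine genes tested in the pair with less ARv7, 15 were lower in C4-2, with a median of -5.02. The UCHL1 difference was 2.92 with ARv7 and -0.47 with less of it. The ENO2 difference was -2.59 there and -4.31 with ARv7. Ribosomal protein genes changed in the other direction from cell cycle genes: 30 of 40 were higher in C4-2 with less ARv7 (median 0.54), and the line difference changed downward for 33 of 40 (20 with total counts in place of TMM). Mitochondrially encoded genes had medians of 0.66 with less ARv7 and -0.11 with it, and 12 of 13 changed downward. Of the 24 amino acid response and stress genes, 20 changed downward, SLC3A2 from -0.10 to -1.51 and ATF4 from 0.75 to 0.27. Antigen presentation genes had medians of -0.27 and 0.71, and 15 of 26 changed upward, B2M from 0.90 to 2.28 and HLA-E from -1.87 to 0.09.

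**Figure D4:**
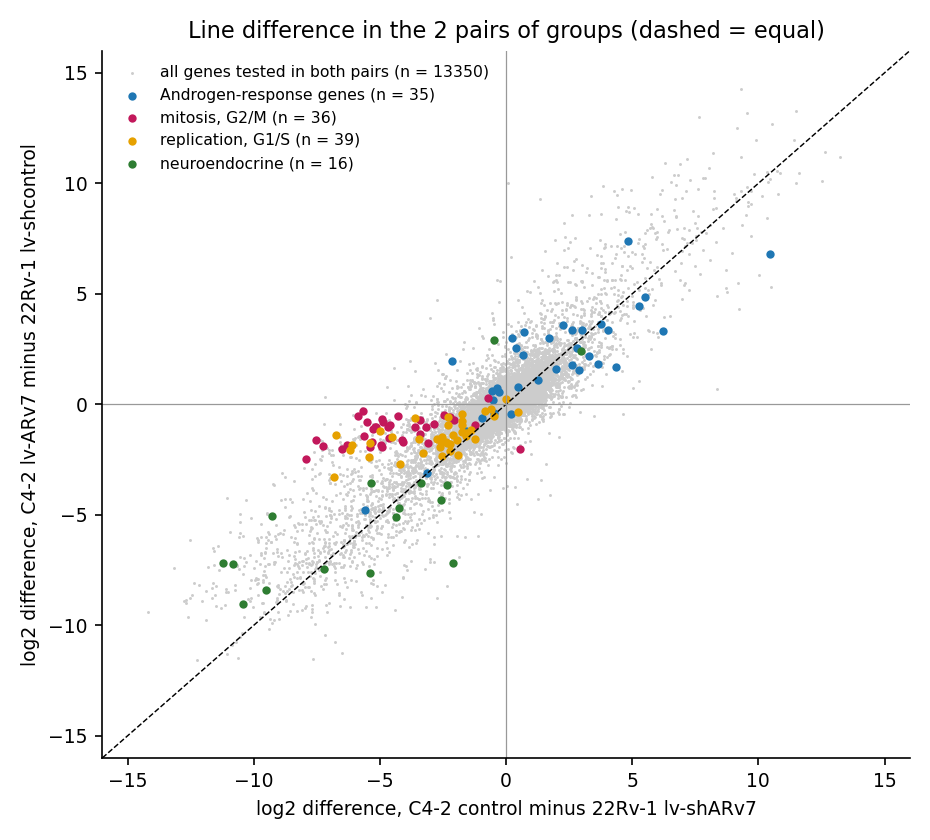
Log2 line difference of 13350 genes in the pair with less ARv7 (x axis) and in the pair with ARv7 (y axis), with 4 lists in colour and a dashed line at equal differences. Most genes lie near the line (r = 0.893), and all mitosis genes but 1 lie above it, with medians of -4.78 on the x axis and -1.05 on the y axis.

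Few genes changed sides with a sizeable difference in both pairs. Of 13350 genes tested in both pairs, 48 were called at least 2-fold in opposite directions and 3906 at least 2-fold in the same direction. At a mean of at least 5 CPM over the libraries, 15 genes were called at least 2-fold in opposite directions, 11 of them higher in C4-2 with ARv7. TXNIP, an inhibitor of thioredoxin and of glucose uptake, read 279, 297 and 279 CPM in C4-2 with ARv7 and 10.6, 12.8 and 9.6 in 22Rv-1 control. In the other pair it averaged 14.1 ± 0.985 CPM in C4-2 control and 94.3 ± 5.01 in 22Rv-1 with the shRNA. The difference went from -2.74 to 4.70, a change of 7.44 (SE 0.12, edgeR adjusted p = 2.22e-34). ARRDC3, another alpha-arrestin, went from -1.99 to 1.05, with 62.6 ± 2.31 and 30.3 ± 0.994 CPM in the pair with ARv7.

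Turning toward 22Rv-1 with ARv7 were CLIP2, RELN, ST3GAL6 and SERPINE2. CLIP2, a microtubule linker, averaged 8.98 ± 0.957 in C4-2 with ARv7 and 174 ± 4.49 CPM in 22Rv-1 control, and 295 ± 17.2 and 123 ± 8.25 CPM in the other pair. RELN, the secreted glycoprotein reelin, averaged 46.2 ± 2.58 and 504 ± 13.8 CPM with ARv7 and 164 ± 7.95 and 62.4 ± 3.66 CPM with less of it. ST3GAL6, a sialyltransferase, averaged 0.602 ± 0.254 and 10.4 ± 1.42 CPM, then 32.5 ± 2.11 and 9.62 ± 0.867 CPM. SERPINE2, a protease inhibitor, averaged 5.55 ± 0.73 and 36.5 ± 1.51 CPM, then 104 ± 5.16 and 35.1 ± 2.85 CPM. In CLIP2, ST3GAL6 and SERPINE2 the C4-2 groups lay much farther apart than the 22Rv-1 groups, and in RELN the 22Rv-1 groups lay farther apart.

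**Figure D5:**
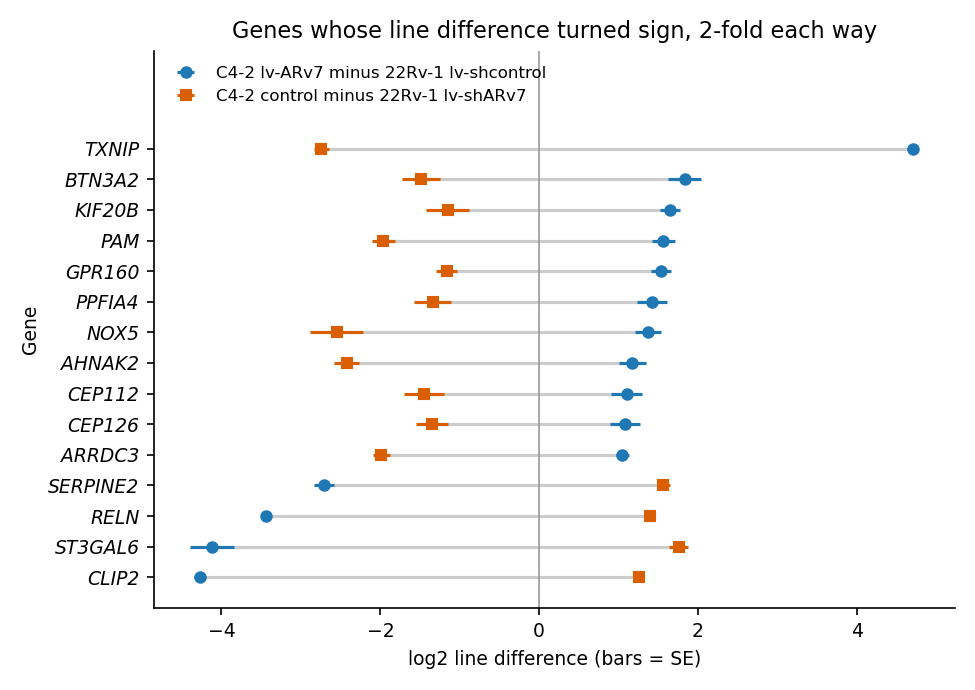
Log2 line difference with its SE for the 15 genes at a mean of at least 5 CPM that were at least 2-fold in opposite directions in the 2 pairs. Circles mark the pair with ARv7 and squares the pair with less of it. TXNIP spans the widest range, from -2.74 to 4.70, and 4 genes turn toward 22Rv-1.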

How the data were processed

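Bulk RNA-seq counts per gene and FPKM values were deposited by the authors in 1 table of 19973 genes (1 further line was broken and left out), and the groups were taken from the labels. Per the submitters' processing notes, reads were trimmed with Cutadapt 2.7. For the aligner, the counter and the use of strand, nothing is given in the sources used here. Those notes name hg18, but the table's coordinates lie within 10000 bp of GENCODE 29 on GRCh38 for 19850 of 19876 matched IDs, and coordinates are given on GRCh38 for that reason.

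Counts were tested with edgeR 4.0.16 in R 4.3.3 (filterByExpr, TMM, quasi-likelihood test, Benjamini-Hochberg adjusted p under 0.05) on the 6 libraries of each pair, and on all 12 for the change of the line difference. Log2 differences come from these fits and not from a deposited log2 scale. Intervals are 95%. Differences were called level where the interval lay within 0.5 log2 units of 0. For genes under 10 counts in a group the count ratio with its exact 95% counting interval is given, and for 0 counts a bound from 3 counts over the group; these cover counting error only.

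Genes were named by a rule: the 15 largest differences in each direction at a mean of at least 5 CPM, from each of 46 lists up to 4 members by smallest adjusted p and up to 3 against its majority, level members, and the 10 largest changes of the line difference. Other genes are said to be chosen after their values were seen. The lists hold 1193 symbols, of which 1182 are in the table, and they and the comparison were chosen with earlier results of these data known. Alternatives were DESeq2 1.42.0, its size factors, total counts, other filters, a replicate block, 1 fit of all libraries, limma 3.58.1 on log2(FPKM + 1) of the deposited FPKM, and each replicate left out. The tests were checked on simulated counts. Some items are not reported here.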

Additional observations from a re-analysis of the deposited data

Results flagged for a closer look

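The line difference itself differed between the pair with ARv7 and the pair with less of it for 7211 genes by edgeR's quasi-likelihood test on all 12 libraries. The values below are the change of the log2 difference (C4-2 minus 22Rv-1), with ARv7 minus with less of it, and each passed that test. The causes were not tested.

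Among the genes with the largest changes, 4 had too few counts for a test in the pair with ARv7. SLC6A12, a betaine and GABA transporter, changed by -11.36, with 2633 counts in C4-2 control and 0, 6 and 17 in C4-2 with ARv7, 22Rv-1 control and 22Rv-1 with the shRNA. CYP11A1, the side-chain cleavage enzyme of steroid synthesis, changed by -8.55, with 3792 counts in C4-2 control, 37 in C4-2 with ARv7 and 1 and 0 in the 22Rv-1 groups. KLRG1, a lymphocyte lectin receptor, changed by -8.16, with 4018 counts in C4-2 control and 12, 27 and 31 in the others. LPL, lipoprotein lipase, changed by 6.32, with 1459 counts in 22Rv-1 with the shRNA and 6, 26 and 4 in the others. Fitted values that rest on counts of 0 depend on the prior count and are no bounds.

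BST2, an interferon-inducible membrane protein, changed by 6.84 and averaged 19.4 CPM in 22Rv-1 with the shRNA, where C4-2 control had no count. DDIT4L, an inhibitor of mTORC1, changed by 6.40, with 2236 counts in that 22Rv-1 group and 245 in 22Rv-1 control. PDE10A, a phosphodiesterase, changed by 6.09, with 308 counts in 22Rv-1 with the shRNA and 3 in 22Rv-1 control. UBE2C changed by 5.90 and averaged 0.219 CPM in C4-2 control and 16.2 in C4-2 with ARv7.

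Genes at a mean of at least 5 CPM that were at least 2-fold in opposite directions in the pairs were flagged too. TXNIP changed by 7.44 and ARRDC3 by 3.03. PAM changed by 3.53, BTN3A2 by 3.32, NOX5 by 3.92, PPFIA4 by 2.76, AHNAK2 by 3.59 and GPR160 by 2.70. KIF20B changed by 2.80, CEP112 by 2.55 and CEP126 by 2.42. Toward 22Rv-1, CLIP2 changed by -5.53, ST3GAL6 by -5.87, RELN by -4.84 and SERPINE2 by -4.27.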

How the results depend on the processing

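The number of genes called between the lines, 11330, ran from 9426 (mean of at least 5 CPM) to 12094 (no filter on low counts) over the alternatives, with 11029 by DESeq2, 9508 by limma and 11173 to 11369 with 1 replicate left out. In the pair with less ARv7 it ran from 9413 to 12309, and with 1 replicate left out from 11149 to 11701. The change of the line difference was called for 6752 to 7385 genes, and for 6752 to 7308 with 1 replicate left out. With a replicate block the counts were 11301, 11360 and 6865; deviations of same-numbered libraries correlated by between -0.0552 and 0.0493, so the labels share only a number. Of 297 named genes called between the lines, 283 were called in every alternative and 14 were lost in at least 1. HNRNPL, not called at -0.01, was 0.149 without 22Rv-1 control replicate 1 and -0.1156 without its replicate 3, and passed the edgeR test in opposite directions there. The counts of higher and lower HOX genes and keratins turned where low genes were left out, which leaves fewer genes tested, while androgen-response genes, replication, mitosis and neuroendocrine genes kept their majority in all of these alternatives. At 3 counts, a library resolves 0.205 to 0.244 CPM.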

Other observations

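ETV1 is known for a rearrangement in LNCaP, the parent of C4-2. In these libraries it had 12 counts in C4-2 with ARv7 and 7 in C4-2 control, beside 1984 in 22Rv-1 control and 1659 in 22Rv-1 with the shRNA. The line difference did not change detectably between the pairs (0.48 on the log2 scale, SE 0.76, edgeR adjusted p = 0.634).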
